A study of Mus musculus with 8 samples.

Results

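The comparison shMCT-1 + IgG vs. scramble + IgG was described across all expressed genes of the 4T1 cell line. 4T1 is a mammary tumor line of BALB/c mice that is used as a model of triple-negative breast cancer. The cells stably carried a plasmid with a short hairpin RNA against MCT-1 (shMCT-1) or with a scramble hairpin, and both lines were kept in 6 µg/ml puromycin. The 4 libraries compared were those titled with IgG, the control antibody, for which the labels give no dose, and each line gave 2 of them. The other 4 of the 8 libraries of the series came from the same lines after anti-IL-6R at 100 ng/ml for 48 h, and they entered the fit to share the estimate of spread and served as separate libraries. The labels describe the replicates as biological. Whether each line was 1 clone or a mixed population is not given in the sources used here, and each hairpin is represented by 1 line, so that the hairpin and other differences between the lines cannot be told apart. Of 54532 listed genes, 12325 had more than 1 CPM (counts scaled to the library total) in at least 2 of the 4 libraries and were tested.

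MCT-1, encoded by Mcts1, pairs with the density-regulated protein DENR on the small ribosomal subunit. The complex removes spent transfer RNA after termination and lets ribosomes start again downstream of short upstream reading frames. MCT-1 was first described as an oncogene of lymphoid cells, and in breast cancer cells it has been linked with IL-6 signaling.

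Library totals ranged from 21849138 to 27527674 counts in the 4 libraries, so that 1 CPM stood for 21.8 to 27.5 counts and 3 counts, the floor used here, for 0.109 to 0.137 CPM. Intervals and floors cover counting error only. Of 9 markers of mammary epithelium, 8 were above 1 CPM in at least 1 library, and their summed level was 2420 to 2540 CPM in scramble and 3350 to 3400 CPM in shMCT-1. Of the receptors whose proteins are absent in triple-negative tumors, Pgr was at 0 in all 4 libraries, Esr1 was at 2.62 to 4.62 CPM and Erbb2 reached 63.2 CPM. Summed over 10 leukocyte markers the level was 3.86 to 3.94 CPM in scramble and 6.93 to 7.47 CPM in shMCT-1, of which Cd68 alone, the only one of them above 1 CPM, made 3.34 and 3.32 against 6.54 and 6.18 CPM. Summed over 6 endothelial markers it was 0.182 to 0.373 CPM in scramble and 1.19 to 1.69 CPM in shMCT-1. Over 7 fibroblast markers it was 15.8 to 16.2 CPM and 15.4 to 16.2 CPM. The defining leukocyte markers Adgre1, Tyrobp and Cd3e and the fibroblast markers Col3a1, Lum and Dpt were at 0. In bulk RNA, fewer cells that express a gene and less RNA per cell cannot be told apart.

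Mcts1 (ENSMUSG00000000355), the target of the hairpin, spans 38600578 to 38613426 of chromosome X in the GRCm38 build. It was measured at 15.4 and 11.8 CPM in the scramble libraries and at 6.32 and 6.18 CPM in the shMCT-1 libraries, without overlap. By the quasi-likelihood test of edgeR it was lower by a log2 fold change of -1.08, with an SE of 0.17 (adjusted p = 0.000644). Mcts2 (ENSMUSG00000042814), an intronless copy of the gene on chromosome 2, was at 29.7 and 26.3 CPM in scramble and at 11.4 and 12.8 CPM in shMCT-1. It was lower by a similar amount (log2 fold change -1.17, standard error 0.11, adjusted p = 3.23e-05). The coding sequences of both genes, 546 bases each in GENCODE M21, were identical at 465 positions (85.16%), and the longest stretch without a difference was 29 bases. The 60 bases of the coding sequence with the most differences, positions 368 to 427 counted from the start codon, are shown because reads of the genes differ most there, with the differing bases in capitals.
Mcts1: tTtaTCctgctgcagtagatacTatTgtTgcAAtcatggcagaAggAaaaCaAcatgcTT
Mcts2: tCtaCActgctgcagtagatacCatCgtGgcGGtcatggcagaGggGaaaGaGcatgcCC
Reads from the untranslated regions were not compared, and the hairpin sequence is not shown here.

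Denr, the partner of MCT-1, moved in the other direction. Its levels were 95.6 and 120.2 CPM in scramble and 173.4 and 179.8 CPM in shMCT-1 (log2 fold change 0.75, standard error 0.12, adjusted p = 0.000572). Of the 15 tested genes of the list of MCT-1, DENR and ribosome recycling factors, which holds Mcts1, Mcts2 and Denr themselves, 6 rose and 5 fell, beside 28.5% and 26.6% of all tested genes. Those that rose included Eif2d, a factor with domains related to both proteins, at 0.71, and Eif1, which guards start codon choice, at 0.70 on the log2 scale.

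**Figure D1:**
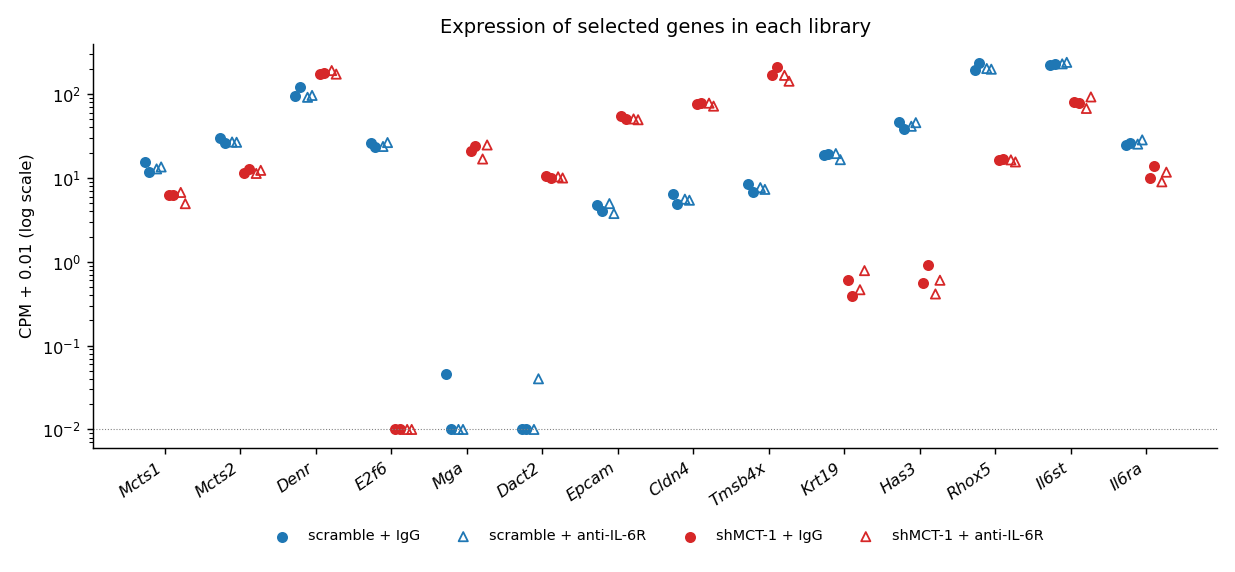
CPM + 0.01 on a log axis for 14 genes in each of the 8 libraries, with filled circles for IgG, open triangles for anti-IL-6R, blue for scramble and red for shMCT-1, and a dotted line at 0 CPM. Mcts1 and Mcts2 are lower and Denr is higher in every shMCT-1 library, and E2f6 is at 0 CPM in all shMCT-1 libraries.

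The lines differed in a large part of their expressed genes. Of the 12325 tested genes, 6799 were differentially expressed genes (DEGs, adjusted p under 0.05), which is 55.2%. Of these, 3516 (28.5% of the tested genes) were higher and 3283 (26.6%) were lower in shMCT-1. At an unadjusted p under 0.05 there were 7509 genes (60.9%). The levels of the groups did not overlap in 78.4% of all tested genes, and 6795 genes (55.1%) were DEGs without overlap. Most changes were moderate, with a median of 1.56-fold among the higher and 1.6-fold among the lower DEGs, and 1785 DEGs (14.5% of the tested genes) differed by more than 2-fold. Of the latter, 856 (6.95% of the tested genes) were higher and 929 (7.54%) lower. The median log2 fold change of all tested genes was 0.01. Each count below is to be read against these shares. A gene below 1 CPM in both libraries of 1 line could pass the filter only through the other line, so that its direction was fixed by passing. In simulated counts of this design the test found 81% of 200 genes with a 2-fold change and 50.5% of as many with a 1.5-fold change. It also called 19 unchanged genes beside 162 changed ones at 2-fold, and 10 beside 101 at 1.5-fold. In both runs unchanged genes made up more than 0.05 of the calls, the threshold used. The simulation changed only 200 genes, far fewer than the 6799 DEGs of the data, and adjusted p-values depend on that number. The shares of changed genes found are therefore not the detection rates in the data, and the rate of false calls in the data was not measured. Permuting 4 libraries exactly allows no two-sided p below 0.333, so the p-values come from the model.

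**Figure D2:**
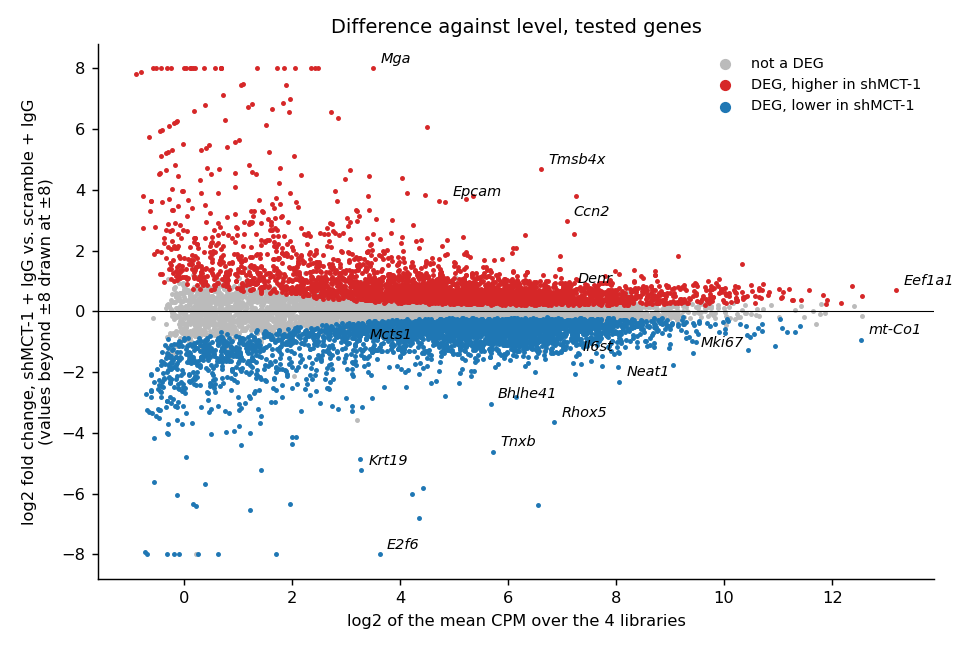
Log2 fold change of shMCT-1 + IgG vs. scramble + IgG against the log2 of the mean CPM over the 4 libraries for the 12325 tested genes, with red points for the 3516 higher and blue points for the 3283 lower DEGs. Changes of either direction occur at all levels, and Tmsb4x, Ccn2, Rhox5 and Tnxb stand apart among genes of higher level.

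Some genes were at or near 0 counts in 1 line. By the rule of at most 3 counts in both libraries of a group and over 5 CPM in both of the other, 16 such genes were found. Each passed the filter only through the line in which it was high, so that its direction was fixed by passing. Of the 16 genes, 3 were high in scramble and 13 in shMCT-1, and 6 had exactly 0 counts in both libraries of the low group. E2f6, a repressor of the E2F family that recruits the Polycomb complex PRC1.6, lies on chromosome 12 from 16810963 to 16839742. It had 724 and 556 counts in the scramble libraries and 0 and 0 in the shMCT-1 libraries, at least 180-fold lower against a floor of 3 counts per library. In the anti-IL-6R libraries the counts were 740 and 873 in scramble and again 0 and 0 in shMCT-1. Its nearest tested neighbours were still measured. Lpin1 before it and Rock2 after it had means of 18.3 and 144 CPM in shMCT-1, with log2 fold changes of -0.98 and -1.14, and Pqlc3 was at -0.25 and not a DEG.

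Mga, which encodes the DNA-binding partner of MAX in the same complex, showed the opposite pattern. It lies on chromosome 2 from 119897228 to 119969581 and had 1 and 0 counts in scramble against 464 and 560 in shMCT-1, a ratio of 1170 with a 95% counting interval from 209 to 46100. In the anti-IL-6R libraries it had 0 and 0 counts in scramble and 333 and 543 in shMCT-1. Its neighbours Rpap1, Tyro3 and Jmjd7 were not DEGs, while Mapkbp1 was lower (log2 fold change -1.23). Ltk, a receptor tyrosine kinase gene before it, was higher, at 0 and 0.0415 CPM in scramble and at 1.51 and 2.05 CPM in shMCT-1. Ltk passed the filter only through the shMCT-1 libraries, so that its direction was fixed by passing. The libraries thus held reads of E2f6 without Mga in scramble, apart from that 1 count, and of Mga without E2f6 in shMCT-1. Of 16 tested genes of the E2F6 and PRC1.6 list, these were the only members with an absolute log2 fold change above 1. In all, 2 were higher (5 without scramble + IgG replicate 2, and 4 after correction for length and GC content) and 4 lower, and the 10 others, which include Max, Pcgf6, L3mbtl2 and Rnf2, were not DEGs.

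PRC1.6 is known for keeping germline genes silent in other cells, and the list of germline and meiosis genes was therefore examined. Of its 46 members, 4 passed the filter of 1 CPM, a filter that removes silent genes, and these 4 were lower. Sycp1 passed it only through the scramble libraries, so that its direction was fixed by passing, and the count supports nothing about the list. Rhox5, a homeobox gene of the reproductive tract that is often active in tumor lines, was at 195.8 and 233.3 CPM in scramble and at 16.4 and 16.9 CPM in shMCT-1 (log2 fold change -3.65, standard error 0.12, adjusted p = 9.18e-08). Zcwpw1, a reader of histone marks in meiosis, was at 100.6 and 108.6 CPM against 35 and 39.1 CPM (log2 fold change -1.46). Sycp1, a component of the synaptonemal complex, was at 2.58 and 2.45 CPM against 0.503 and 0.341 CPM, and Msh5, a meiotic crossover protein, at 8.46 and 6.31 CPM against 3.07 and 3.16 CPM. In each of these genes the groups stood apart. The summed level of all 46 members was 309.3 and 352.2 CPM in scramble and 57.7 and 61.8 CPM in shMCT-1. Rhox5 and Zcwpw1 made up most of each sum, so that it describes these genes and not the list.

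Promoters of this list were searched for TCCCGC or GCGGGA, an E2F-type motif read on both strands, and for CACGTG, the E-box of MAX partners. RefSeq promoters on GRCm38.p6 (250 bases before to 50 after the start) were held for 39 of the 46 genes. The E2F-type letters were found in 18 of these (46.2%), against 41.4% of the promoters of tested genes and 22% of all promoters. CACGTG was found in 16 (41%), against 12.2% of the promoters of tested genes and 8.09% of all promoters. Of the tested members, the promoters of Sycp1 and Msh5 held matches and are shown for that reason, with the matched letters in capitals. Msh5 held the E2F-type letters but not CACGTG. The promoters of Rhox5 and Zcwpw1, which made up most of the summed level of the list, held no match of either kind. A match is a description of the letters only.
Sycp1, chr3:102936051-102936350, minus strand: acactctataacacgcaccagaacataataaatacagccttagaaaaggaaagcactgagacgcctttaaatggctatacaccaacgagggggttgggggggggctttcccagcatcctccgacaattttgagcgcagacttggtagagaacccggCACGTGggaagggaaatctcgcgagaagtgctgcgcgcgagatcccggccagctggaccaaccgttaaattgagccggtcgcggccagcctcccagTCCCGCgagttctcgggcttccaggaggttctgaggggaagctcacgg
Msh5, chr17:35046573-35046872, minus strand: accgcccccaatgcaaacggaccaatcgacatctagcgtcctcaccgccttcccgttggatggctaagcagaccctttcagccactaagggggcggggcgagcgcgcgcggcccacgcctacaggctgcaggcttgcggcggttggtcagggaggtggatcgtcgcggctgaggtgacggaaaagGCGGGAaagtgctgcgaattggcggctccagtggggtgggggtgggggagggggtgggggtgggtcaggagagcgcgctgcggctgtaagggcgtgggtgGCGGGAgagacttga

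The other genes at or near 0 counts in 1 line were of mixed function. Btbd6, an adaptor of ubiquitin ligases, had 247 and 158 counts in scramble against 1 and 3 in shMCT-1. Gas7, a regulator of the cytoskeleton, had 141 and 130 against 3 and 3. In shMCT-1, Dact2, an inhibitor of Wnt and TGF-β signaling, had 227 and 236 counts and was at least 82.2-fold higher. Panx1, a channel that releases ATP, had 191 and 183 counts there and was at least 66.5-fold higher. Tspan12, a tetraspanin of Norrin signaling, was at least 52.9-fold and Bmyc, a short relative of Myc on chromosome 2, at least 41-fold higher. Each of these genes was at 0 counts in both scramble + IgG libraries. Chchd10, a protein of mitochondrial cristae, rose from 0 and 1 to 258 and 244 counts, and Sgsm1 from 0 and 1 to 215 and 272 counts. The remaining genes were Sema5a, Maged2, Kank1, Serpinb2, Rnase4 and the non-coding Foxd2os.

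Among protein-coding genes with at least 10 CPM in the higher group, the largest falls after E2f6 included Fam83a, Has3 and Krt19. Fam83a, an activator of EGFR and RAS signaling, was at 38.9 and 42.3 CPM in scramble and at 0.229 and 0.469 CPM in shMCT-1 (log2 fold change -6.79, standard error 0.27). Has3, a synthase of hyaluronan, fell from 46.7 and 37.9 to 0.549 and 0.902 CPM (log2 fold change -5.81, standard error 0.20). Krt19, a keratin of luminal epithelium, fell from 18.6 and 19.2 to 0.595 and 0.384 CPM (log2 fold change -5.23, standard error 0.23). The ranking took only DEGs without overlap, so that the separation of the groups was a condition of being named. Adcy3, an adenylyl cyclase, and Tnxb, a tenascin of the matrix, had log2 fold changes of -6.01 and -4.62. Fam83a, Has3, Krt19 and Adcy3 were below 1 CPM in both shMCT-1 libraries. They passed the filter only through the scramble libraries, so that their direction was fixed by passing. Tnxb had 105.9 and 98.1 CPM in scramble and 3.98 and 4.09 CPM in shMCT-1. Sod3, the extracellular superoxide dismutase, had a log2 fold change of -3.29, Pik3r5, a regulatory subunit of PI3K gamma, of -3.14 and Shank2, a scaffold protein, of -3.12.

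With the same limit of 10 CPM, and leaving out genes at the floor in scramble, the largest rises were those of Igfbp7, Aldoc and Tmsb4x. Igfbp7, a secreted binding protein of insulin-like growth factors, rose from 0.109 and 0.166 CPM to 12.6 and 13.5 CPM (log2 fold change 6.57, standard error 0.27). Aldoc, a glycolytic aldolase, rose from 0.218 and 0.124 to 14.1 and 14.6 CPM. Tmsb4x, which encodes the actin-binding thymosin beta 4, was at 8.39 and 6.76 CPM in scramble and at 166.5 and 210.5 CPM in shMCT-1 (log2 fold change 4.67, standard error 0.16, adjusted p = 9.71e-08). Further rises were those of Pgf, a VEGF family ligand, at 4.44, of the G protein subunits Gng2 and Gnb4 at 4.39 and 3.88, of Apol9b at 4.37 and of Htatip2 at 3.95 on the log2 scale. Here too the ranking took only DEGs without overlap, so that the separation of the groups was a condition of being named. Igfbp7, Aldoc, Apol9b and Htatip2 were below 1 CPM in both scramble libraries. They passed the filter only through the shMCT-1 libraries, so that their direction was fixed by passing.

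The genes with the most counts changed less. Of the 5 higher DEGs with the most counts, Eef1a1, Actb, Lgals1 and Hspa8 rose by 0.69, 0.52, 0.83 and 0.37 on the log2 scale. The fifth, the elongation factor Eef2, had a log2 fold change of 0.28 (adjusted p = 0.0206), was not called in the fit of the 4 libraries alone (adjusted p = 0.0944) and stood at -0.02 after correction for length and GC content, so that no direction is given for it. The lower DEGs with the most counts were mt-Co1, mt-Nd1 and mt-Cytb of the mitochondrial genome, Fn1 and Gm28661. Gm28661 was not called in the fit of the 4 libraries alone (adjusted p = 0.0587), after correction for length and GC content (-0.33), without scramble + IgG replicate 2 (-0.41) or without shMCT-1 + IgG replicate 1 (-0.26). It lies in a stretch of chromosome 1 that carries a copy of mitochondrial DNA, so that its reads cannot be told apart from those of the mitochondrial genes with certainty. After the values were seen, 5 further genes above 10 CPM in both lines were singled out for their size. Deptor, an inhibitor of mTOR, and Slpi, a secreted protease inhibitor, had log2 fold changes of -2.82 and -2.36, while Clu, a secreted chaperone, and Rgs16, a regulator of G protein signaling, rose by 2.56 and 2.52. The fifth, Neat1, is described with the non-coding RNAs.

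The receptors of IL-6 were lower in shMCT-1. IL-6 binds IL-6R, encoded by Il6ra, and the pair then engages gp130, encoded by Il6st, which activates JAK kinases and STAT3. Il6ra was at 25 and 26 CPM in scramble and at 10.0 and 14.0 CPM in shMCT-1 (log2 fold change -1.05, standard error 0.17, adjusted p = 0.000604). Il6st was at 222.8 and 229.3 CPM against 80.6 and 78.6 CPM (log2 fold change -1.47, standard error 0.13, adjusted p = 2.17e-05), and it lies on chromosome 13, whose genes were lower by a median of -0.43. Osmr, the oncostatin M receptor that also pairs with gp130, fell from 10.6 and 12.7 to 4.26 and 4.26 CPM. Il6 itself was at 0.171 to 0.436 CPM and was not tested. Of the 30 tested genes of IL-6 and JAK-STAT3 signaling, 8 were higher, 10 lower and 12 not DEGs, with a median of -0.05, so that the fall of the receptors was not shared by the list. Cebpb, a transcription factor of the acute phase on chromosome 2, fell from 371.6 and 383.0 to 137.8 and 152.3 CPM (log2 fold change -1.34).

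Chemokines and cytokines moved in both directions, with 7 higher and 5 lower of 19 tested (3 lower without scramble + IgG replicate 2). Cxcl5, a neutrophil attractant, was at 300.2 and 262.6 CPM in scramble and at 87.0 and 90.4 CPM in shMCT-1 (log2 fold change -1.63). Il1a rose from 6.64 and 6.84 to 32.0 and 32.7 CPM (log2 fold change 2.30), although it lies on chromosome 2, and Tgfb2 rose from 1.49 and 1.62 to 5.63 and 4.56 CPM. Ppbp, which encodes CXCL7, and its receptor gene Cxcr2 were below 1 CPM in all 4 libraries and were not tested. Of 26 tested NF-κB subunits and adaptors, 16 fell and 3 rose, with a median of -0.31. Of these members, 7 lie on chromosomes 2, 12 and 13, and of the other 19, 9 fell and 3 rose, with a median of -0.21. Tank, an adaptor on chromosome 2, fell by 1.17, while Tbkbp1, a partner of TBK1, rose from 4.98 and 6.02 to 71.4 and 67.7 CPM and Tmem173, which encodes STING, from 1.27 and 1.87 to 9.61 and 7.51 CPM.

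Most of the tested interferon-stimulated genes and genes of antigen presentation were higher. Of 35 tested interferon-stimulated genes, 23 rose and 3 fell, with a median of 0.65. With the filter set to more than 1 CPM in all 4 libraries 15 rose among the fewer members then tested, and the members with the largest changes were low in scramble. Oas1a, a sensor of double-stranded RNA, rose from 0.145 and 0.166 to 4.42 and 4.45 CPM, and Oas1g, at 0 counts in both scramble libraries, was at 2.72 and 1.77 CPM in shMCT-1. Sp100, a component of nuclear bodies, rose from 0.218 and 0.083 to 1.78 and 2.13 CPM. Oas1a, Oas1g and Sp100 passed the filter only through the shMCT-1 libraries, so that their direction was fixed by passing. Of 22 tested genes of MHC class I presentation, 18 rose and 2 fell, with a median of 0.67 (0.40 after the correction for length and GC content). Psmb8, a subunit of the immunoproteasome, rose from 0.145 and 0 to 5.77 and 5.50 CPM, H2-M3 from 1.38 and 1.37 to 5.17 and 6.18 CPM and H2-T22 from 2.16 and 1.87 to 7.10 and 6.73 CPM. H2 genes are close copies of each other, and reads may be split among them. Both counts include genes that passed the filter only through shMCT-1, Psmb8 among them. They stand beside the 28.5% of all tested genes that were higher, and no test of the lists was made.

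Of 12 tested ligands of immune checkpoints, 7 rose and 1 fell (up to 4 fell with 1 library left out, and 3 after the correction for length and GC content). Cd274, which encodes PD-L1, was near the filter, at 0.218 and 0.373 CPM in scramble and at 1.01 and 1.11 CPM in shMCT-1 (log2 fold change 1.88, standard error 0.44, adjusted p = 0.00501). Lgals9, a galectin that binds TIM-3, rose from 4.43 and 3.90 to 14.5 and 13.6 CPM, and Vsir, which encodes VISTA, was at 1.31 and 1.29 CPM in scramble and at 0.137 and 0 CPM in shMCT-1. Cd274 passed the filter only through the shMCT-1 libraries and Vsir only through the scramble libraries. Fas, a death receptor, fell from 22.7 and 17.9 to 8.19 and 8.49 CPM (log2 fold change -1.25, standard error 0.13).

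**Figure D3:**
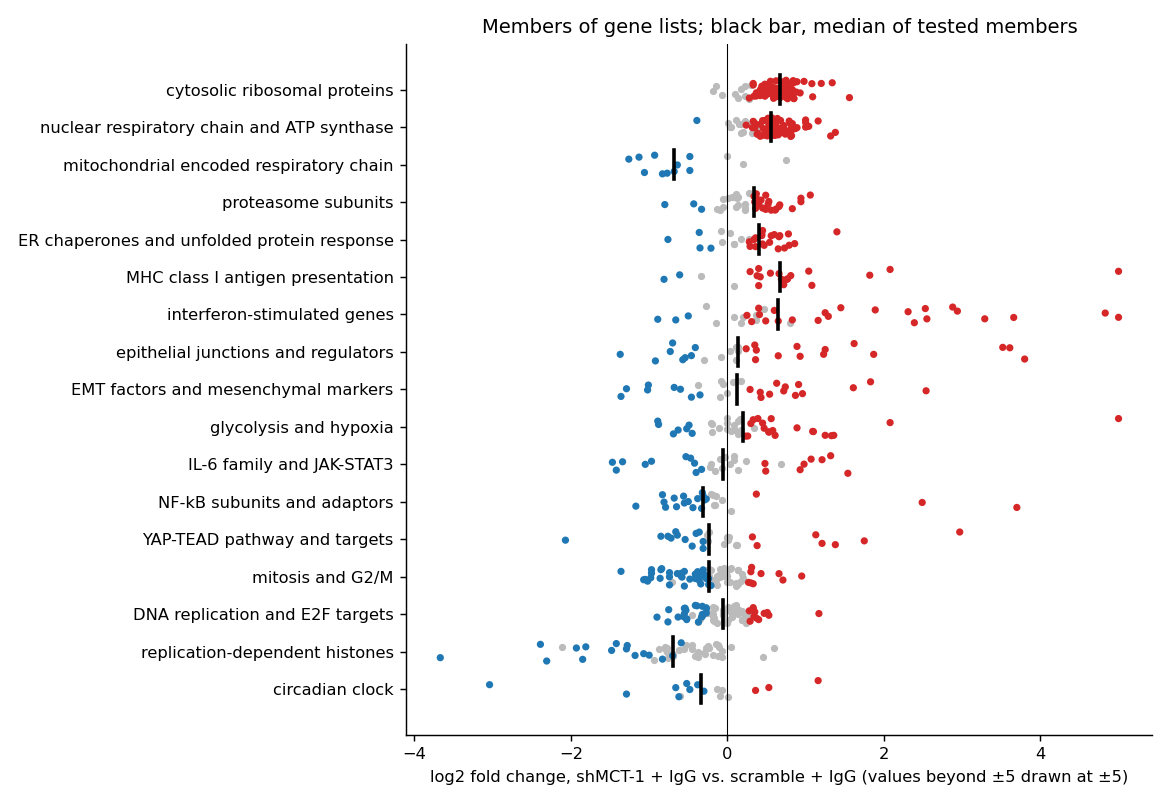
Log2 fold change of each tested member of 17 gene lists, with red for higher DEGs, blue for lower DEGs, grey for genes that were not DEGs, and a black bar at the median of the tested members. The medians of ribosomal proteins (0.67) and nuclear respiratory chain genes (0.56) lie to the right, and those of the mitochondrial encoded genes (-0.68) and histones (-0.69, or -0.37 without shMCT-1 + IgG replicate 2) to the left.

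Epithelial genes changed in opposite directions. Epcam, an adhesion protein of epithelia, was at 4.72 and 4.07 CPM in scramble and at 54.5 and 50.7 CPM in shMCT-1 (log2 fold change 3.61, standard error 0.14, adjusted p = 1.73e-07). Cldn4, a claudin of tight junctions, rose from 6.36 and 4.85 to 75.1 and 77.4 CPM (log2 fold change 3.80, standard error 0.12), and Ehf, an epithelial ETS factor, from 0.363 and 0.664 to 6.82 and 4.61 CPM. Ehf passed the filter only through the shMCT-1 libraries, so that its direction was fixed by passing. Yet of 29 tested epithelial junction genes and regulators, 14 rose and 8 fell, and Cdh1, the main cadherin of epithelia, was at 290.6 and 315.0 CPM against 292.0 and 264.7 CPM and not a DEG (adjusted p = 0.537). Of 13 tested mammary keratins and lineage regulators, 7 rose and 2 fell, and the rises numbered 4 without scramble + IgG replicate 1.

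Mesenchymal genes were divided as well. Of 29 tested EMT factors and markers, 13 rose and 8 fell, with a median of 0.12 (-0.12 after the correction for length and GC content described with the ribosomal proteins), and the falls numbered 4 without shMCT-1 + IgG replicate 2. Mmp9, a gelatinase, rose from 64.7 and 46.6 to 205.0 and 181.0 CPM (log2 fold change 1.83), Tgfbi from 0.509 and 0.788 to 3.66 and 3.67 CPM and Itgb6, an integrin chain that activates TGF-β, from 2.54 and 2.99 to 8.24 and 8.19 CPM. Tgfbi passed the filter only through the shMCT-1 libraries, so that its direction was fixed by passing. Vim rose by 0.54 and Twist1 by 0.42 (0.21 and not called after that correction), while Zeb1 was below 1 CPM in all libraries. Fn1, which encodes fibronectin, was at 2830 and 2901 CPM in scramble and at 1953 and 1545 CPM in shMCT-1 (log2 fold change -0.68), a change that was not called without shMCT-1 + IgG replicate 2 (-0.52, adjusted p = 0.0703). Among 41 tested collagens, other matrix genes and integrins, 16 rose and 12 fell. Col5a3 rose from 0.109 and 0.083 to 1.46 and 1.79 CPM, and Col27a1 was at 0 counts in scramble and at 1.14 and 1.02 CPM in shMCT-1. Both passed the filter only through the shMCT-1 libraries, so that their direction was fixed by passing.

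Targets of the YAP-TEAD pathway, which senses cell contact and stiffness, were also split. Ccn2, which encodes the matricellular factor CTGF, was at 31.6 and 31.1 CPM in scramble and at 260.1 and 219.9 CPM in shMCT-1 (log2 fold change 2.97, standard error 0.10, adjusted p = 9.71e-08). Vgll3, a cofactor of TEAD, fell from 2.91 and 3.40 to 0.503 and 0.938 CPM. It passed the filter only through the scramble libraries, so that its direction was fixed by passing. In the list, 7 of 29 tested genes rose and 12 fell, with a median of -0.24, so that Ccn2 went against the median. Of 9 tested stem cell markers, 3 rose and 4 fell. Outside chromosomes 2, 12 and 13, 3 of 5 rose and 1 fell, with a median of 0.81. Epcam, also a member of this list, had its largest change, a rise of 3.61. Abcg2 rose by 1.48 (1.16 without shMCT-1 + IgG replicate 2), but passed the filter only through the shMCT-1 libraries, so that its direction was fixed by passing. Klf4 fell from 24.6 and 27.1 to 9.66 and 10.7 CPM and Bmi1, on chromosome 2, from 86.5 and 101.5 to 56.6 and 56.9 CPM, and Nanog, Sox2 and Pou5f1 had at most 0.0458 CPM.

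The translation machinery, in which MCT-1 acts, was higher in its ribosomal part. Of 82 tested cytosolic ribosomal protein genes, 71 rose and 0 fell, with a median log2 fold change of 0.67. They took 62240 and 51250 CPM of the scramble libraries and 78740 and 85680 CPM of the shMCT-1 libraries. The strongest rise was that of Rpl41, from 823.2 and 510.2 to 1571 and 2246 CPM (log2 fold change 1.56), followed by Rps14 at 1.34 and Rpl34 at 1.20. Ribosomal protein transcripts are short, and the log2 fold change moved with transcript length, from a median of 0.21 in the shortest of 5 equal bins of the tested genes to -0.25 in the longest. It also moved with GC content, from -0.28 in the lowest to 0.21 in the highest of 5 bins. After correction for both, the median of the ribosomal protein genes was 0.42, with 62 higher and 2 lower. Of 47 tested initiation factors, 19 rose and 7 fell, and the rises numbered 10 without shMCT-1 + IgG replicate 1 and 9 without replicate 2.

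Nuclear and mitochondrial genes of the respiratory chain moved apart. Of 77 tested nuclear genes of the chain and the ATP synthase, 63 rose and 1 fell, with a median of 0.56 (0.33 after the correction for length and GC content, with 44 higher and 1 lower). Ndufa4 rose from 82.9 and 58.2 to 166.6 and 190.8 CPM and Cox7a2 from 46.0 and 34.1 to 91.9 and 102.6 CPM. Of the 13 mitochondrial genes of the chain, 10 fell and 0 rose, with a median of -0.68 (-0.36 after the correction, with 7 lower). mt-Nd5 fell from 1735 and 2196 to 724.7 and 876.4 CPM (log2 fold change -1.26) and mt-Co1 from 7189 and 8522 to 3326 and 4727 CPM (-0.93). The share of all counts from the mitochondrial genome was 2.07% and 2.52% in scramble and 1.13% and 1.53% in shMCT-1. mt-Nd1 was not called in the fit of the 4 libraries alone (adjusted p = 0.0807), after the correction (-0.13, adjusted p = 0.473) or with any single anti-IL-6R library left out. Both mt-Cytb and mt-Nd1 were not called without scramble + IgG replicate 2 (-0.44 and -0.25) or without shMCT-1 + IgG replicate 1 (-0.47 and -0.24).

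Protein quality control was higher in several lists. Of 40 tested proteasome subunits, 21 rose and 3 fell, with a median of 0.34, with the largest rise within the list in Psma5 at 1.06. Of 32 tested endoplasmic reticulum chaperones and genes of the unfolded protein response, 21 rose and 4 fell (1 without shMCT-1 + IgG replicate 1), with a median of 0.40. Sdf2l1 rose from 5.12 and 5.27 to 13.9 and 12.9 CPM, Manf from 108.3 and 99.4 to 182.4 and 184.8 CPM and P4hb, a protein disulfide isomerase, from 484.1 and 411.0 to 750.5 and 754.0 CPM. Dnajb9, a chaperone gene on chromosome 12, went the other way (-0.76, standard error 0.15). Of 42 tested genes of the ATF4 and amino acid response, 13 rose and 7 fell (13 and 11 after the correction for length and GC content). Slc7a11, the cystine transporter, fell from 57.1 and 54.6 to 15.5 and 14.0 CPM (log2 fold change -1.88, standard error 0.09), and Stc2 rose from 4.36 and 4.52 to 16.1 and 17.2 CPM.

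Genes of mitosis were lower in part. Of 80 tested genes of mitosis and G2/M, 36 fell, 9 rose and 35 were not DEGs, with a median of -0.24, and the falls numbered 23 without shMCT-1 + IgG replicate 2 and the rises 4 without shMCT-1 + IgG replicate 1. Mki67, the proliferation marker Ki-67, was at 886.9 and 1107 CPM in scramble and at 419.6 and 339.6 CPM in shMCT-1 (log2 fold change -1.36, standard error 0.21, adjusted p = 0.000463). Smc2, a subunit of condensin, fell by 1.05, and Nusap1, a spindle protein on chromosome 2, by 1.07. Without the genes of chromosomes 2, 12 and 13, 24 of 63 fell and 9 rose. Of 73 tested genes of DNA replication and E2F targets, 21 fell, 12 rose and 40 were not DEGs, and the falls numbered 11 without shMCT-1 + IgG replicate 2. Rbl1, a pocket protein on chromosome 2, fell from 73.2 and 75.8 to 38.3 and 39.7 CPM, and Rpa3 rose from 12.2 and 14.7 to 25.4 and 33.6 CPM.

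Of 49 tested replication-dependent histone genes, 16 fell and 0 rose, with a median of -0.69. Their transcripts lack a poly(A) tail in the main, and the libraries were made from poly(A) RNA. Their summed level was 289 to 320 CPM in scramble and 129.5 to 194.3 CPM in shMCT-1. Of the 49 genes, 39 lie on chromosomes 2, 12 and 13, and of the other 10, 2 fell. Without shMCT-1 + IgG replicate 2 the falls numbered 10 and the median was -0.37, and without replicate 1 the median was -1.05. Hist2h2be on chromosome 3 fell from 10.6 and 11.3 to 2.52 and 1.79 CPM. Histone genes are close copies of each other, and reads may be split among them. Myc was at 562.8 and 596.4 CPM in scramble and at 433.2 and 373.6 CPM in shMCT-1 (log2 fold change -0.49, standard error 0.09, adjusted p = 0.00173).

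Among p53 targets and regulators, 3 rose and 5 fell of 19 tested (up to 5 rose with 1 library left out). Plk2 fell from 406.3 and 393.7 to 174.7 and 172.3 CPM (log2 fold change -1.17), and Phlda3 rose from 11.1 and 8.63 to 22.8 and 20.9 CPM.

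Metabolic and signaling lists showed single strong members. Of 42 tested genes of glycolysis and hypoxia, 20 rose and 7 fell, with a median of 0.20 (17 and 11 after the correction for length and GC content). Eno3, an enolase, rose from 29.0 and 24.2 to 105.1 and 113.7 CPM (log2 fold change 2.08). Of 48 tested xenobiotic, glutathione and NRF2 genes, 13 rose and 19 fell. Cyp1b1, a cytochrome P450, fell from 17.6 and 22.1 to 3.02 and 2.35 CPM (log2 fold change -2.85), and Ephx1, an epoxide hydrolase, rose from 0.145 and 0.249 to 3.11 and 2.73 CPM. Ephx1 passed the filter only through the shMCT-1 libraries, so that its direction was fixed by passing. Of 34 tested genes of cholesterol and fatty acid synthesis, 16 rose and 5 fell, and the rises numbered 9 without shMCT-1 + IgG replicate 1. Srebf1, a regulator of lipid synthesis, rose by 0.90.

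Of 16 tested genes of the circadian clock, 8 fell and 3 rose, and the falls numbered 5 without shMCT-1 + IgG replicate 2. Bhlhe41, a repressor of the clock, was at 91.7 and 91.2 CPM in scramble and at 10.1 and 11.6 CPM in shMCT-1 (log2 fold change -3.04, standard error 0.10, adjusted p = 9.71e-08), and Clock fell from 99.1 and 99.4 to 38.3 and 40.8 CPM. In the Notch pathway, 5 rose and 6 fell of 19 tested. Notch1, a receptor on chromosome 2, fell from 56.9 and 49.3 to 18.9 and 16.4 CPM, and its target Hes1 from 147.9 and 157.0 to 76.3 and 105.0 CPM. Dll4, a ligand on the same chromosome, rose from 2.22 and 1.37 to 6.41 and 5.84 CPM.

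Among EGFR family genes and ligands, 3 rose and 4 fell of 11 tested, and 1 rose without scramble + IgG replicate 2. Nrg1, a ligand of ERBB3, fell from 60 and 67.9 to 23.7 and 23 CPM (log2 fold change -1.42), and Areg, a ligand of EGFR, from 154.9 and 155.8 to 89.3 and 80.9 CPM. Erbb3 rose from 7.19 and 8.26 to 13 and 13.4 CPM, and Egfr itself was below 1 CPM. Of 10 tested sialyltransferases, 3 rose and 3 fell (up to 5 fell with 1 library left out). St6gal1, which adds α2,6-linked sialic acid to N-glycans, rose from 13.9 and 14.1 to 29.9 and 29.4 CPM (log2 fold change 1.12, standard error 0.13), and St3gal1, which makes α2,3 linkages on O-glycans, fell from 86.2 and 73.9 to 32.4 and 31.7 CPM.

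In several non-coding classes of the annotation, more tested genes were lower than higher in shMCT-1. Of 164 tested genes of the class TEC (loci that await experimental evidence), 102 fell and 6 rose, with a median log2 fold change of -1.25. Of 195 lincRNAs, 94 fell and 19 rose (median -0.60), of 177 antisense genes 85 fell and 9 rose (-0.75), and of 35 lncRNAs from bidirectional promoters 25 fell and 1 rose (-1.21). Protein-coding genes had a median of 0.03, with 3304 higher and 2833 lower of 10964. Processed pseudogenes had 139 higher and 43 lower of 509, and 91 and 53 after the correction for length and GC content. Neat1, the RNA that scaffolds nuclear paraspeckles, was at 457.4 and 433.3 CPM in scramble and at 71.8 and 102.2 CPM in shMCT-1 (log2 fold change -2.32, standard error 0.19, adjusted p = 1.55e-05). Levels of these classes were low, with a median of 1.98 to 2.95 CPM in the higher group for TEC, antisense, bidirectional and lincRNA genes. After the correction for length and GC content their medians were -0.95, -0.75, -1.27 and -0.43. Members below 1 CPM in both libraries of 1 line passed the filter only through the other line, so that their direction was fixed by passing. How many members this concerned was not counted, and the counts and medians of these classes carry that limit. The counting is not stated to use strand, so that antisense reads cannot be told apart from those of their partner genes.

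The direction of change also depended on the chromosome. Genes of chromosomes 2, 12 and 13 were lower, with medians of -0.36 over 970, -0.34 over 462 and -0.43 over 506 tested genes. Of their DEGs, 17.5%, 16.3% and 16.7% were higher in shMCT-1, beside 51.7% of all DEGs. Each of 4 segments of these chromosomes, cut by the order of the tested genes, had a median between -0.52 and -0.23. With each of the 4 libraries left out in turn, the medians stayed between -0.38 and -0.34, between -0.36 and -0.33 and between -0.43 and -0.40. Chromosomes 1, 14, 15 and 11 had medians of 0.23, 0.19, 0.18 and 0.15, and on chromosome 14, 73.7% of DEGs were higher. Other chromosomes changed along their length. On chromosome 6 the medians of the 4 segments were 0.47, 0.15, -0.09 and -0.26, and on chromosome 4 they were -0.34, -0.25, 0.12 and 0.10. Chromosome 5 went from -0.28 in its first to 0.18 in its last segment. Outside chromosomes 2, 12 and 13, 3312 DEGs were higher and 2287 lower of 10387 tested genes.

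**Figure D4:**
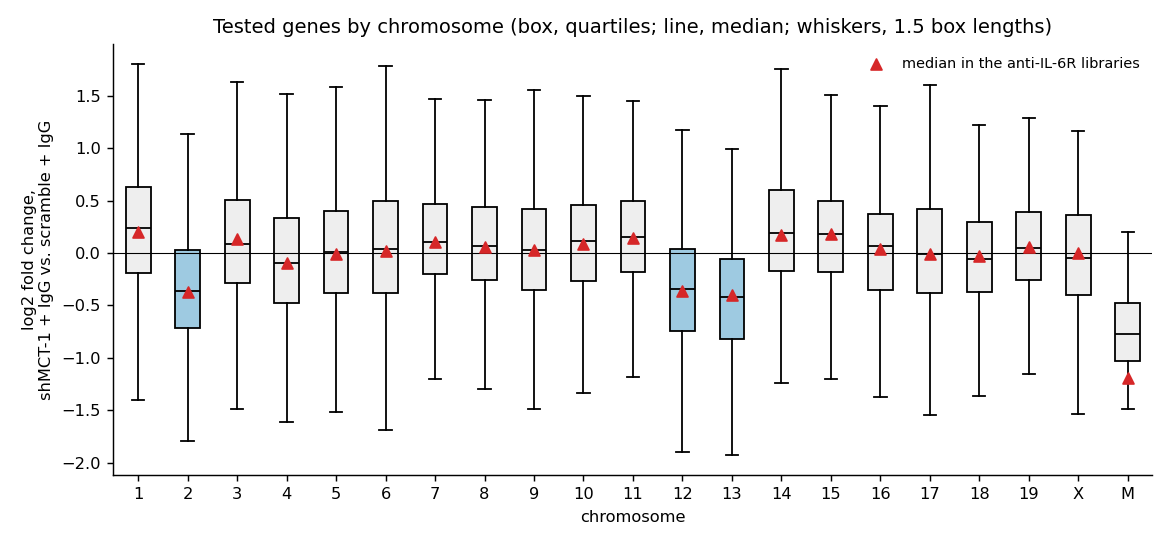
Log2 fold change of tested genes by chromosome, with boxes from the lower to the upper quartile, a line at the median, whiskers of at most 1.5 box lengths, chromosomes 2, 12 and 13 in blue, and red triangles at the medians of the anti-IL-6R libraries. The medians of chromosomes 2, 12 and 13 are -0.36, -0.34 and -0.43 in the IgG libraries and -0.37, -0.36 and -0.40 in the anti-IL-6R libraries.

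The lines were measured once more in the 4 anti-IL-6R libraries, which share no library with the IgG comparison when each is fitted alone. Of 6464 DEGs of the 4 IgG libraries, 6435 (99.55%) had the same direction in the anti-IL-6R libraries, and 5620 (86.94%) were DEGs there as well. Over all 12325 tested genes, 89.18% had the same direction. Of 1776 DEGs with more than 2-fold change, 1761 (99.16%) kept their direction. The difference between shMCT-1 and scramble was not called as different between the treatments for any gene (0 genes in the interaction test of edgeR, smallest adjusted p = 0.385, and 304 genes at an unadjusted p under 0.05). These are separate libraries of the same lines, and no further line was compared.

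**Figure D5:**
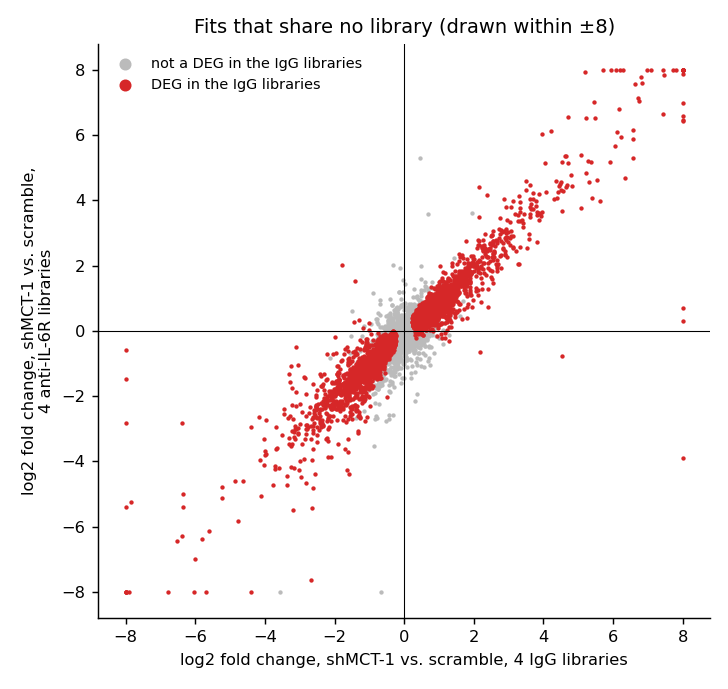
Log2 fold change of shMCT-1 vs. scramble in the 4 anti-IL-6R libraries against that in the 4 IgG libraries, each fitted alone, with red points for the 6464 DEGs of the IgG libraries. Of the red points, 99.55% lie in the quadrants of equal direction.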

How the data were processed

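RNA of 4T1 cells was sequenced in 8 libraries, 2 per group, of which the 4 IgG libraries were compared. Per the methods of the study, the authors trimmed paired-end reads (cutadapt 1.18), aligned them to mm10 with STAR 2.7.0d and the GENCODE M19 annotation, and counted genes with RSEM. The deposited values are estimated counts (expected counts), of which 29.64% of those above 0 were not whole within 0.005, and they were rounded before the tests. The library kit adds unique molecular identifiers. The strand setting of the counting and whether reads were collapsed by these identifiers are not given in the sources used here. Gene names and places came from GENCODE M21 (GRCm38), matched for 54495 of 54532 identifiers, and promoters from RefSeq.

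Genes above 1 CPM in 2 or more IgG libraries were tested with edgeR 4.0.16 (R 4.3.3), TMM scaling and the quasi-likelihood test on all 8 libraries with 1 coefficient per group, and p-values were adjusted after Benjamini-Hochberg over all tested genes, with 0.05 as the threshold. The study's own test, edgeR's exact test, and DESeq2 1.42.0 were alternatives. Groups came from the titles, and the replicates are labelled as independent. Log2 fold changes are shMCT-1 minus scramble. Correction for GC content and transcript length used a loess offset per library with a span of 0.3. The test was checked on simulated counts. Library totals of all 8 libraries were 19839299 to 33063570. Counting intervals are exact at 95%.

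Replicates of a group differed by more than counting noise, with a chi-square per degree of freedom of 4.32 to 28.36. Members and gene lists were chosen with earlier results of these data known. The genes named were Mcts1, Mcts2 and Denr, the 12 largest rises and 12 largest falls among protein-coding DEGs without overlap and with a mean of at least 10 CPM in the higher group, and the 5 DEGs with the most counts in each direction. Also named were up to 3 DEGs of each list with the largest change and at least 1 CPM, genes at the floor in 1 group, and genes that the study's text names. The text gives a selection of these genes, and says where others were added. Alternatives were normalization, filters, tool, thinning, rounding, replicate block, GC content and length, and each library left out in turn. Some named genes are not reported here.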

Additional observations from a re-analysis of the deposited data

Results flagged for a closer look

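In 2 genes, both of low level, shMCT-1 and scramble differed in opposite directions in the IgG and the anti-IL-6R libraries, each fitted alone. Lypd1, on chromosome 1, was at 2.41 and 3.59 CPM in scramble and at 1.12 and 1.06 CPM in shMCT-1 under IgG (log2 fold change -1.41, adjusted p = 0.0078 from edgeR). Under anti-IL-6R it was at 0.901 and 1.36 CPM in scramble and at 4.15 and 2.21 CPM in shMCT-1 (log2 fold change 1.53, adjusted p = 0.0149). The interaction was -2.93 on the log2 scale, with an unadjusted p of 0.000277 and an adjusted p of 0.683.

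Gm28539, a protein-coding locus on chromosome 16, was at 0 in both scramble libraries and at 5.36 and 1.05 CPM in shMCT-1 under IgG (adjusted p = 0.00368 from edgeR). Under anti-IL-6R it was at 6.78 and 4.35 CPM in scramble and at 0 and 0.702 CPM in shMCT-1 (log2 fold change -3.90, adjusted p = 0.00412). The adjusted p of its interaction was 0.385, so that neither gene passed the test of the difference over all genes.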

How the results depend on the processing

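The number of DEGs was 5599 to 7681 under the other settings and 5100 to 7313 with 1 library left out. With 1 library left out, the higher DEGs numbered 2595 to 3738, the lower DEGs 2454 to 3638 and the DEGs of more than 2-fold change 1566 to 2055. The latter numbered 2740 without a filter and 1077 with more than 1 CPM in all 4 IgG libraries. Outside chromosomes 2, 12 and 13, a setting chosen after seeing the data, 2287 lower DEGs were counted. Mcts1 ranged from -1.24 to -0.90 with 1 library left out, with a largest adjusted p of 0.00912 from edgeR. Of 150 named genes, 137 kept call and direction in every alternative run and 13 lost the call in at least 1. The 150 are the named genes that were tested. All of them were DEGs, most by the rules that named them, so that these counts do not speak for the other DEGs. Il6, Serpina3n, Egfr, Ppbp, Cxcr2, Nanog, Sox2, Pou5f1 and Zeb1, which the study names, did not pass the filter and were not tested. A gene left out of a setting was counted as kept there, as were E2f6 and Mga under more than 1 CPM in all 4 IgG libraries. After the correction for GC content and length, Eef2 was at -0.02 and not called. Of DEGs above 2-fold, 99.16% had the same direction in the anti-IL-6R libraries.

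The deviations of same-numbered replicates had correlations of -0.078 to 0.137 between groups, each from 1 difference per group. Whether libraries of the same number shared a culture or preparation was not tested. With the replicate number as a block, 6916 DEGs were found, 3581 higher and 3335 lower, of which 1804 differed by more than 2-fold. Each group held 2 libraries. In simulated counts with 200 changed genes, 50.5% of those with a 1.5-fold change were found, and 10 unchanged genes were called. The 50.5% is not the detection rate in the data.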
